A study of Mus musculus with 6 samples.

Results

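The Ifi200 genes, also called the PYHIN family, are interferon-inducible genes that lie side by side on distal mouse chromosome 1. The members examined were Ifi202b, Ifi203, Ifi204, Ifi205, Mnda, Mndal, Aim2 and Pyhin1, 8 of the 23337 genes in the deposited expression table, taken by their symbols. The family was chosen with results of these data known, the contrast between genotypes included. The members' own differences between genotypes are therefore given as a description, with no p, and the count of members past the threshold is set beside the share of all genes only for reference. RefSeq places all 8 on chromosome 1 of GRCm38, between 173349547 and 174031755, a stretch of 682 kb, and its symbols for the rows Mnda and Pyhin1 are Ifi211 and Ifi209.

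Spleen endothelial cells were compared between mice without Stab1 (genotype Stab1-/-, here KO, 3 libraries named KO 2, KO 3 and KO 4) and wild-type mice (WT, 3 libraries named WT 1, WT 3 and WT 4). Stab1 encodes stabilin-1, or Clever-1, which takes up ligands in sinusoidal and lymphatic endothelial cells. All 6 samples carry the strain label C57BL/6, were sorted as CD31+ CD45- cells after collagenase digestion of the spleen, and received no treatment that the labels name. The age of the mice, the way the Stab1 allele was made and whether each library stands for its own animal are not given in the sources used here, so errors measure the spread between libraries, which may be technical. Values of single libraries are given in the order KO 2, KO 3 and KO 4, then WT 1, WT 3 and WT 4.

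PYHIN proteins pair a pyrin domain, which binds other proteins, with a HIN domain, which binds DNA, and several of them act as sensors or modulators of responses to DNA. Aim2 senses DNA in the cytosol and builds an inflammasome with the adaptor Pycard and the protease Casp1. The product of Ifi202b has HIN domains and no pyrin domain, and is known to hold back Aim2 in mouse cells. Ifi204 is often treated as the mouse counterpart of human IFI16, a DNA sensor that works through Sting1. The transcript of Ifi202b is known to be abundant in some inbred mouse strains and scarce in others, among them C57BL/6.

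Interferon acts on many genes through a short promoter element, and the windows upstream of the members were searched for it. RefSeq promoter windows (build GRCm38.p6, 250 bases before to 50 after the start of transcription) were matched for 7 of the 8 members, all but Ifi204, and for 12 genes of the family in all, some with more than 1 start. The core of the interferon-stimulated response element, GAAA, any 2 bases and GAAA again, was searched on both strands. It occurred in 4 of the 7 members (Ifi203, Ifi205, Mnda and Mndal). Counted by window, 10 of the family's 14 windows held it, against 3.44% of all 32851 promoter windows. Some of the 14 share sequence, as the runs below show, and so are not independent of each other. The 10 windows belong to 9 of the 12 genes. In 8 of these genes the match was part of a longer run, GAAAT, any base and GAAAGC, a motif written down after the windows had been read. It occurred in 11 of all 32851 windows (0.0335%). Of these 11 windows 8 are the family's own, so that share is no independent background. The runs of 38 bases around the match on the gene's own strand are shown 5′ to 3′ for these members, with the match in capitals.
Ifi203 (chr1:173942504-173942541, minus strand): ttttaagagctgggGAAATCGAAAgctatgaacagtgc
Mndal (chr1:173880200-173880237, minus strand): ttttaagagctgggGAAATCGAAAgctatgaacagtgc
Mnda (chr1:173913060-173913097, minus strand): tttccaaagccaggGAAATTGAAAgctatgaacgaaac
Ifi205 (chr1:174031866-174031903, minus strand): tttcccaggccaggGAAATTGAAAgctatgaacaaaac
The runs of Ifi203 and Mndal are the same 38 letters at different places in the genome. Counted from the start used for the window, the match began 35 bases before the start of transcription in Ifi203, 36 before it in Mndal, 37 before it in Mnda and 134 before it in Ifi205. The opposite strand held a further match in Ifi205, at base 24 after the start, and in the window of a second annotated start of Mndal, 54 bases before that start. The annotated genes of Ifi203, Mndal and Mnda reach further upstream, to 173942866, 173880382 and 173913087, so that their printed matches lie inside the annotated genes. The annotated gene of Ifi205 ends at 174031755, and its printed match lies upstream of it. The last 20 bases of the window were found in a GENCODE M21 transcript of the gene for Mnda and Ifi205, and not for Ifi203, Mndal or Ifi202b.

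No such match was found in the window of Ifi202b, which held TTCNNNGAA, the letters of the interferon-gamma activated site, a palindrome that 8.3% of all windows hold. The whole window of Ifi202b is shown because its level separated the genotypes completely, and that of Mndal because it carries the element found in 4 members. Capitals mark TTCNNNGAA in the first and the response element core in the second. Both are on the minus strand of the C57BL/6J reference, and neither sequence was read from these mice.
Ifi202b (chr1:173982795-173983094): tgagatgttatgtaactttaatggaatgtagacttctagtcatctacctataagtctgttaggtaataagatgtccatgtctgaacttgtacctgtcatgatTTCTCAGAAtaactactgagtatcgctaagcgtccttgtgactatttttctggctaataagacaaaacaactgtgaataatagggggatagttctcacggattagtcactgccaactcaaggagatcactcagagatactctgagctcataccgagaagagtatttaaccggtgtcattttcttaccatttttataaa
Mndal (chr1:173880138-173880437): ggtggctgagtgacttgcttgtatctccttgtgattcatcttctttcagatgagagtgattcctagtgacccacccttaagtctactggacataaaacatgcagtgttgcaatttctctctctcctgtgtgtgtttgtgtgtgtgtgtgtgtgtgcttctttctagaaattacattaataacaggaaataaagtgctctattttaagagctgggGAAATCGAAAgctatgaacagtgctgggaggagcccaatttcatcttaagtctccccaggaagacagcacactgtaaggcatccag

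Near-identical copies can trade reads, so transcripts were compared first. All windows of 50 bases in the GENCODE M21 transcripts of each member were looked up in the transcripts of every other gene. Of the 1648 windows of Ifi202b, 0 occurred in another gene. Aim2 shared 0% of its windows with the family, and 99.3% of them were in no other gene. Mnda was the opposite case: 44.7% of its windows also lay in Ifi205, 30.1% in Ifi204 and 17.1% in Mndal, and 27.2% were in no other gene. The share in no other gene was 80.0% for Ifi204, 80.4% for Mndal, 81.4% for Ifi205, 87.6% for Ifi203 and 66.3% for Pyhin1. With windows of 75 bases, Mnda still shared 40.6% with Ifi205 and 23.0% with Ifi204. The read length and the handling of reads with several places are not given in the sources used here, so the level of Mnda in particular is uncertain.

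**Figure D1:**
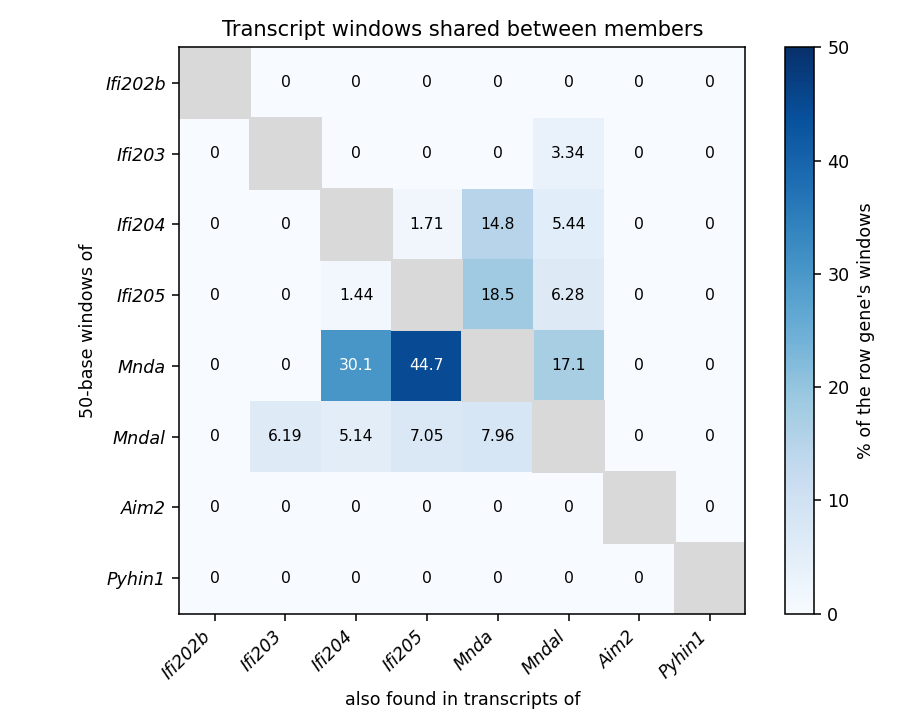
Share of the 50-base transcript windows of each member (rows) that are also found in the transcripts of another member (columns), in percent, from GENCODE M21. Ifi202b, Aim2 and Pyhin1 share none with the other members, while Mnda shares 44.7% with Ifi205 and 30.1% with Ifi204.

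The deposited RPKM values (reads scaled to gene length and library size) stepped in whole reads, which gave 40538556 to 51498038 reads over genes in KO libraries and 40274424 to 50177715 reads in WT libraries. Stab1, the targeted gene, was lower in every KO library, at 2.32, 2.62 and 2.49 RPKM in the KO libraries and at 21.6, 43.6 and 31.4 RPKM in the WT libraries. Endothelial markers were high in every library, with 12 of 12 tested and 0 of them called in limma, and their summed level was 4235 to 4780 RPKM in KO and 3775 to 4403 RPKM in WT. In bulk samples fewer cells of a type and less RNA per cell cannot be told apart.

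Ifi202b was detected in every KO library and in no WT library. It was at 14.4, 13.7 and 20.5 RPKM in the KO libraries, which came from 1284, 1253 and 1500 reads, and it was listed at 0 in the WT libraries. A single read of the gene would have been worth 0.0110 to 0.0136 RPKM in these libraries. The KO level lay above 78.2 to 82.7% of all genes in the table. Of the 23337 genes, Ifi202b was the 1 gene listed at 0 in all 3 WT libraries with at least 1 RPKM in all 3 KO libraries, and 0 genes showed the reverse. No fold change is given against a group at 0. The gene spans chr1:173962569-173982844.

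Ifi204, often treated as the counterpart of human IFI16, was lower in KO. It was at 3.32, 3.90 and 4.10 RPKM in the KO libraries, against 24.7, 15.4 and 23.6 RPKM in the WT libraries. The groups did not overlap, and the KO libraries lay closer together than the WT libraries. Reads numbered 379 to 455 in KO and 1782 to 2469 in WT. As KO minus WT in log2(RPKM + 0.5), which makes changes at low levels look smaller, the log2 fold change was -2.32 ± 0.19 (SE, n = 3 each), and the log2 fold change of the authors' deposited table was -2.46. The gene lies at chr1:173747293-173767069.

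Mndal, named for its likeness to the human myeloid nuclear differentiation antigen, was lower in KO by a smaller margin. It was at 7.85, 7.73 and 9.70 RPKM in the KO libraries, against 22.5, 14.6 and 19.3 RPKM in the WT libraries, again without overlap. Its log2 fold change was -1.10 ± 0.17 (SE, n = 3 each), against -1.14 in the authors' deposited table. Mndal and Ifi204 differed in how far they moved: Mndal stood at 2.36, 1.98 and 2.37 times the RPKM of Ifi204 in the KO libraries, and at 0.910, 0.951 and 0.821 times in the WT libraries. The gene lies at chr1:173857215-173880382.

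Mnda and Ifi203, which lie between Mndal and Ifi202b, had no lower mean in KO. Mnda was at 2.76, 3.12 and 3.89 RPKM in the KO libraries and at 1.99, 1.29 and 2.13 RPKM in the WT libraries. Every KO library was above every WT library, with a log2 fold change of 0.71 ± 0.21 (SE, n = 3 each). Ifi205 and Ifi204, which share the most windows with it, had lower means in KO. Ifi203 was at 4.83, 4.19 and 5.60 RPKM in the KO libraries and at 3.73, 2.98 and 5.14 RPKM in the WT libraries. These ranges overlapped, and the log2 fold change was 0.29 ± 0.21 (SE, n = 3 each). Mndal, whose promoter window holds the same 38 bases, was below its WT range in the same KO libraries. The part of this run in either level was not tested.

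Aim2, Ifi205 and Pyhin1 were close to the bottom of the scale. Aim2, the inflammasome sensor, was at 0.325, 0.140 and 0.145 RPKM in the KO libraries and at 0.350, 0.413 and 0.207 RPKM in the WT libraries, from 15 to 41 reads in KO and 24 to 53 reads in WT. Ifi205, studied mostly in macrophages, was at 0.262, 0.0732 and 0.213 RPKM in the KO libraries and at 0.907, 0.184 and 0.217 RPKM in the WT libraries. Its highest value was that of WT 1, and the other WT libraries lay within the KO range. Pyhin1, whose human relative IFIX binds DNA, had 5 reads in KO 3, 3 in WT 4 and 0 in the other libraries. These 3 genes were below the filter on low values and were not tested. In the authors' deposited table the log2 fold change was -0.99 for Ifi205 and -0.71 for Aim2.

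**Figure D2:**
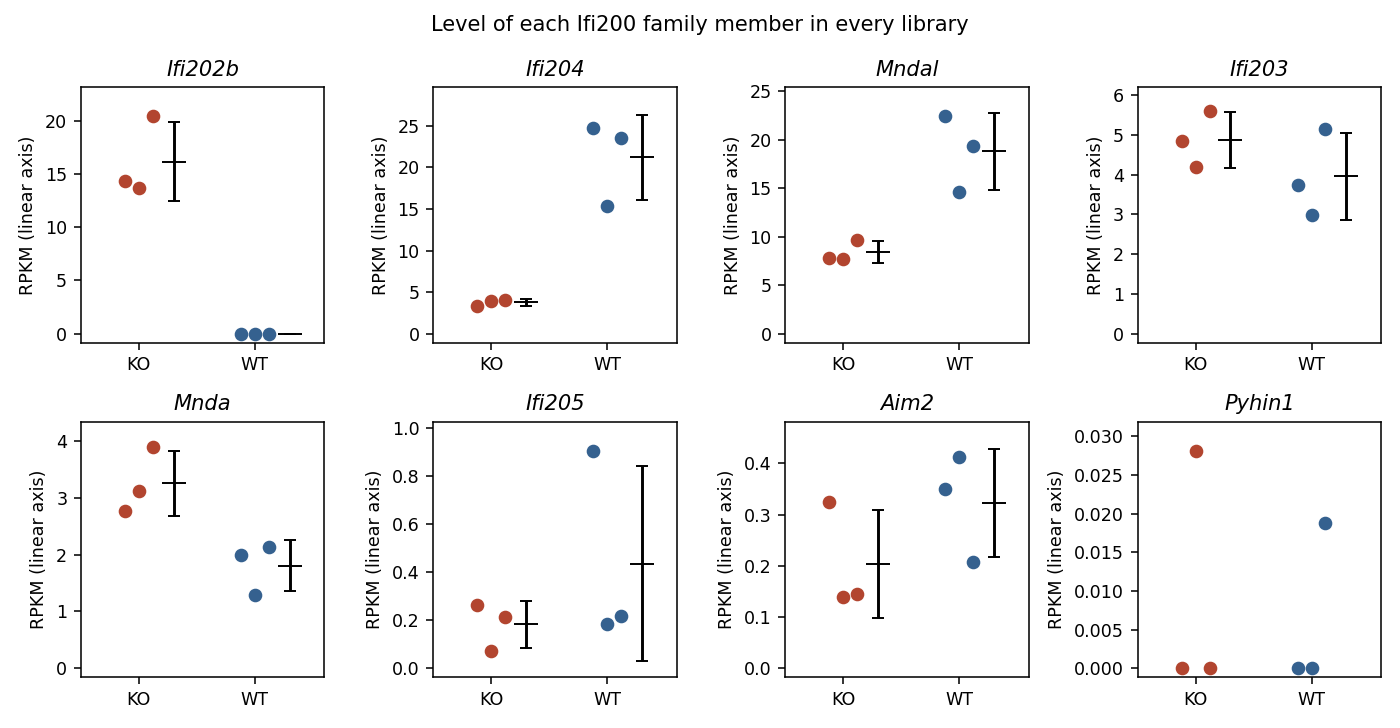
RPKM of each member (linear axes that differ between panels) in the 3 KO libraries (left) and the 3 WT libraries (right). Points are libraries and bars are mean ± SD (n = 3 each), left out for Pyhin1. Ifi202b is at 13.7 to 20.5 RPKM in KO and listed at 0 in WT, while Ifi204 and Mndal are lower in every KO library.

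The order of the members by level changed with the genotype. In KO it ran Ifi202b (16.2 ± 3.71 RPKM), Mndal (8.43 ± 1.10), Ifi203 (4.87 ± 0.708), Ifi204 (3.77 ± 0.404), Mnda (3.26 ± 0.573), Aim2, Ifi205 and Pyhin1 (SD, n = 3). Ranges of neighbours in that order overlapped between Ifi204 and Mnda and between Aim2 and Ifi205. In WT it ran Ifi204 (21.2 ± 5.10 RPKM), Mndal (18.8 ± 3.97), Ifi203 (3.95 ± 1.09), Mnda (1.81 ± 0.450), Ifi205, Aim2, Pyhin1 and Ifi202b. There the overlaps were between Ifi204 and Mndal, between Ifi205 and Aim2 and between Pyhin1 and Ifi202b.

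Summed over the 8 members, the family stood at 33.7, 32.9 and 44.1 RPKM in the KO libraries and at 54.2, 34.8 and 50.6 RPKM in the WT libraries, with overlapping ranges. Without Ifi202b the sums were 19.2 to 23.6 RPKM in KO and 34.8 to 54.2 RPKM in WT. Ifi202b made up 41.7 to 46.4% of the family's sum in KO and 0% in WT. Ifi204 and Mndal together made up 31.3 to 35.3% in KO and 84.7 to 87.1% in WT. Ifi204, Mndal, Mnda and Ifi205 share windows and could trade reads among themselves. Their sum was 14.2 to 17.9 RPKM in KO and 31.4 to 50.1 RPKM in WT. Mndal also shared 6.19% of its 50-base windows with Ifi203, which is not in that sum, against 5.14% with Ifi204.

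**Figure D3:**
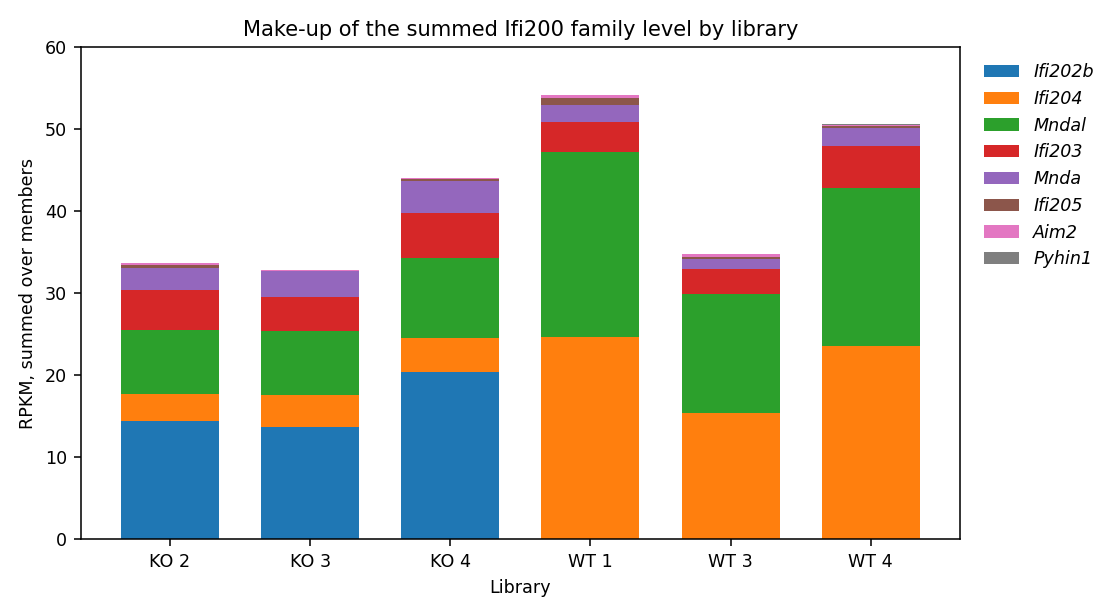
RPKM of the 8 members stacked by library, KO libraries on the left and WT libraries on the right. Ifi202b (bottom) is present in the KO bars alone, and the totals, 32.9 to 44.1 RPKM in KO and 34.8 to 54.2 RPKM in WT, overlap.

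Requiring 1 RPKM or more in 3 or more libraries kept 5 of the 8 members among 11035 genes. Ifi202b passed it through its KO libraries alone. In limma 3 of the 5 were past an adjusted p of 0.05, Ifi202b higher and Ifi204 and Mndal lower in KO, where 1.94% of all genes tested were (0.671% higher and 1.27% lower). The groups did not overlap in 4 of the 5, against 20.3% of all genes tested. The family was chosen on the RPKM values of these KO and WT libraries, so these counts are no test of it and nothing is read from them. Mndal was not among those past it without KO 2, KO 3 or WT 4 or when low genes were kept in. Ifi202b failed the filter without any 1 KO library. Further family genes in the table, listed as AI607873 (Ifi207), Pydc3 (Ifi208), Pydc4 (Ifi213) and BC094916, stayed below that filter. AI607873 was at 0.0282 to 0.173 RPKM in KO and 0.114 to 0.351 RPKM in WT, and BC094916 was listed at 0 throughout. Pydc3 was at 0.0132 to 0.164 RPKM in KO and 0 to 0.0513 RPKM in WT, and Pydc4 at 0 to 0.00750 RPKM in KO and 0.0369 to 0.147 RPKM in WT.

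The interferon programme around the family was examined next, with genes that are not members. Of 65 interferon-stimulated genes, 59 were tested and 1 fell, where 1.94% of all genes tested were called. This was Samd9l, an antiviral factor, at 8.19 ± 1.11 RPKM in KO and 15.9 ± 3.12 RPKM in WT (SD, n = 3 each). In limma the difference was -0.90 ± 0.17 on the log2 scale (SE, adjusted p = 0.0310), and the call was lost without KO 2 (adjusted p = 0.0804), KO 3 (0.150), KO 4 (0.05002), WT 3 (0.0785) or WT 4 (0.128) or when low genes were kept in (0.118). Of the 59, 0 rose in limma, 5 had an unadjusted p under 0.05, and 22 had a log2 fold change above 0 and 37 below it. Their median was -0.04, against 0.03 over all genes tested, with single genes from -0.90 to 0.35. Ifi203 lay within that range, Mnda above it and Ifi204 and Mndal below it. The members were chosen with these differences known, so their place against that range is no test.

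Of 20 interferon receptor and JAK-STAT genes, regulators such as Socs1 and Ptpn6 included, 19 were tested and 0 were called in limma. Of the 19, 2 had an unadjusted p under 0.05 in limma, and the median log2 fold change was 0.04. Smallest in p was Tyk2, a receptor-bound kinase, at 5.74 ± 1.06 RPKM in KO and 3.81 ± 1.16 RPKM in WT (SD, n = 3 each, adjusted p = 0.263 in limma). The phosphatase genes Ptpn6 and Ptpn2 came next, with log2 fold changes of -0.91 and -0.43 and adjusted p of 0.303 and 0.361.

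Among genes that sense DNA in the cytosol or pass that signal on, such as Cgas, Sting1 and Tbk1, 20 of 24 were tested, 4 had an unadjusted p under 0.05 and 1 fell, where 1.94% of all genes tested were called. This was Rad50, a DNA repair protein, at 2.11, 1.97 and 2.37 RPKM in the KO libraries, against 4.84, 4.37 and 4.51 RPKM in the WT libraries. In limma the difference was -0.94 ± 0.16 on the log2 scale (SE, adjusted p = 0.0213), lost without KO 2 (adjusted p = 0.103), KO 3 (0.113) or WT 4 (0.0845) or when low genes were kept in (0.0800). The list's median log2 fold change was 0.07. Of 18 genes of pyroptosis and of inflammasomes, those of sensors other than Aim2 included, 11 were tested and 0 were called in limma (3 at an unadjusted p under 0.05). Their median was -0.03. Casp4, a protease that cleaves Gsdmd, was at 8.26 ± 0.359 RPKM in KO and 14.6 ± 4.30 RPKM in WT (SD, n = 3 each, log2 fold change -0.74 ± 0.20 SE, adjusted p = 0.115 in limma), and it passed as lower without WT 3 (adjusted p = 0.0223). Nlrp1a and Ninj1 had log2 fold changes of 0.59 and 0.24 and adjusted p of 0.209 and 0.232.

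**Figure D4:**
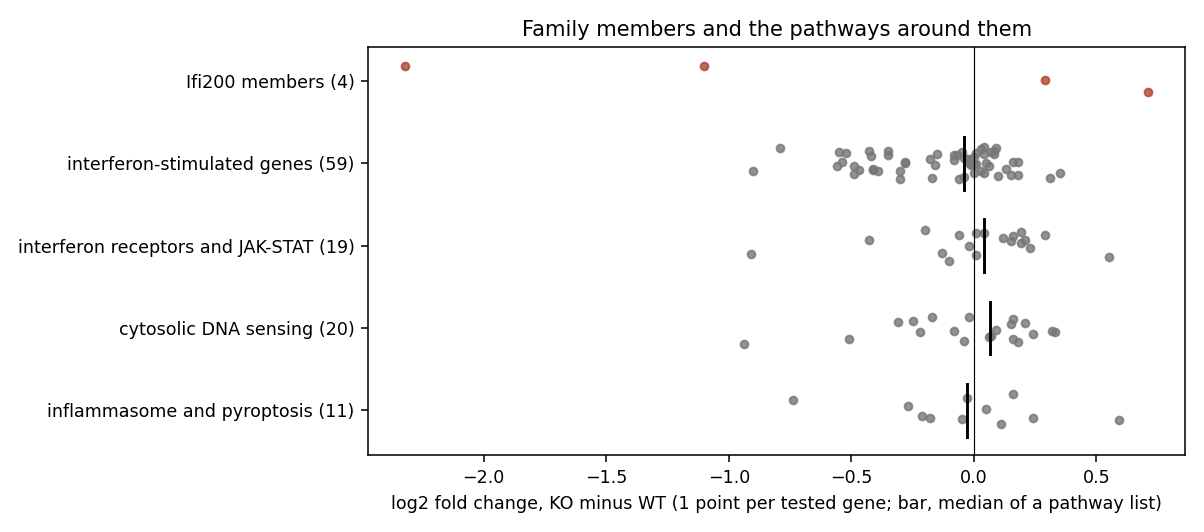
Log2 fold change (KO minus WT) of 4 tested members and of the tested genes of 4 surrounding pathways, 1 point per gene, with a bar at the median of each pathway list. Pathway genes lie between -0.94 and 0.59, and the members between -2.32 (Ifi204) and 0.71 (Mnda). The members were chosen with their differences known, so this is no test of them. Ifi202b is left out because it is at 0 in WT.

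Other genes near the cluster were compared as well, in an area that earlier results on these data had shown to be rich in differences. Within 2 Mb of either end, 77 other genes were in the table and 19 were tested, of which 3 passed in limma, where 1.94% of all genes tested did, and 6 had an unadjusted p under 0.05. Dusp23, a phosphatase gene 717 kb away, fell: it was at 3.25, 3.68 and 3.20 RPKM in the KO libraries, against 10.9, 8.93 and 9.02 RPKM in the WT libraries (log2 fold change -1.38 ± 0.15 SE, adjusted p = 0.00226). That call held in all 12 alternatives. Alyref2 (log2 fold change 0.79 ± 0.15 SE, adjusted p = 0.0275) and Pea15a (0.55 ± 0.10 SE, adjusted p = 0.0299) rose. Each of these calls was lost in 6 of 12 alternatives, among them those without KO 2, KO 3, WT 1 or WT 4 (adjusted p at most 0.147 and 0.156), and for Alyref2 also without WT 3 (0.0679). Darc, the chemokine-binding receptor gene Ackr1, the nearest tested neighbour at 16 kb and picked out after its values were seen, was at 11.9, 32.4 and 3.98 RPKM in the KO libraries and at 26.8, 1.16 and 1.66 RPKM in the WT libraries (adjusted p = 0.515 in limma).

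**Figure D5:**
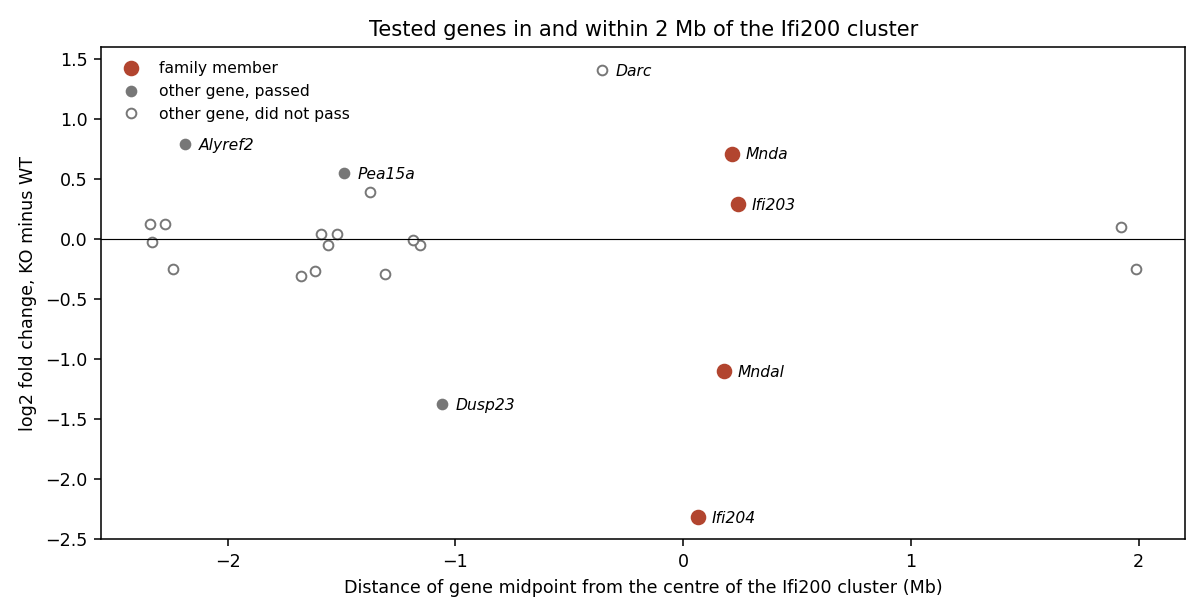
Log2 fold change (KO minus WT) of tested genes against the distance of their midpoint from the centre of the Ifi200 cluster, in Mb. Members (red, without Ifi202b, which is at 0 in WT) span -2.32 to 0.71, while of the 19 other genes (grey, filled where the adjusted p is under 0.05) 3 passed, with Dusp23 at -1.38.

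Several Ifi200 genes are known from myeloid cells, so markers of macrophages and monocytes were read in the same libraries. Of 16 markers 5 were tested and 1 was called in limma, where 1.94% of all genes tested were. This was Fcer1g, a receptor chain gene that itself lies on distal chromosome 1, at 55.5 to 115 RPKM in KO and 215 to 232 RPKM in WT. The 16 summed to 82.7 to 153 RPKM in KO and 244 to 276 RPKM in WT, and without Fcer1g to 27.2 to 37.9 RPKM in KO and 28.4 to 49.1 RPKM in WT. Lyz2 was at 5.75 to 8.50 RPKM in KO and 7.25 to 18.8 RPKM in WT, Tyrobp at 1.67 to 2.88 RPKM in KO and 3.21 to 4.28 RPKM in WT, and Mrc1 at 12.9 to 21.8 RPKM in KO and 13.1 to 21.7 RPKM in WT. The markers under 1 RPKM in every library were 9 of the 16, and among them Csf1r, Adgre1, Cd163, Itgam, Ptprc and Mpeg1 did not exceed 0.104 RPKM in KO or 0.185 RPKM in WT. Platelet markers, 1 of 6 called as lower, summed to 48.6 to 64.1 RPKM in KO and 77.2 to 223 RPKM in WT, highest in WT 3. Pf4 and Ppbp lay above the KO range in every WT library, while Itga2b, Gp9, Gp1bb and Treml1 did not. Reticular and pericyte markers, with 1 of 6 tested called as lower, summed to 203 to 261 RPKM in KO and 179 to 372 RPKM in WT. Most of that was Acta2, at 160 to 320 RPKM over the libraries. Rgs5 was at 1.91 to 2.87 RPKM in KO and 5.14 to 8.71 RPKM in WT, while Pdgfra, Pdgfrb, Col1a1, Ccl19, Cspg4 and Acta2 overlapped between the groups. Neutrophil markers, with 0 tested, summed to 0.747 to 10.3 RPKM in KO and 0.171 to 1.98 RPKM in WT, and B cell markers, also with 0 tested, to 1.503 to 1.926 RPKM in KO and 2.25 to 2.55 RPKM in WT. Dendritic markers (1 tested) summed to 66.1 to 76.4 RPKM in KO and 53.3 to 86.2 RPKM in WT. Nearly all of that was Zbtb46, at 52.8 to 85.9 RPKM over the libraries, and the other dendritic markers did not exceed 0.352 RPKM. T and NK cell markers (1 tested) summed to 6.68 to 8.44 RPKM in KO and 7.59 to 8.14 RPKM in WT. Most of that was Lck, at 6.47 to 7.81 RPKM, while Nkg7 reached 1.26 RPKM and Cd3d, Cd3e and Cd3g did not exceed 0.123 RPKM. Erythroid markers (2 tested) summed to 8.20 to 43.1 RPKM in KO and 12.1 to 42.9 RPKM in WT. Early response markers, all 9 tested and 0 called in limma, summed to 4586 to 5292 RPKM in KO and 4270 to 4544 RPKM in WT. The part of other cells in the members' levels was not tested.

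The genes whose profile over the 6 libraries was most like that of a member were sought by Pearson correlation of log2(RPKM + 0.5) among the genes tested. The libraries fall into 2 genotypes, so such likeness mostly restates the contrast and is given without a test. For Ifi202b these were Pgm1, Pnp2 and Ldb2 (r = 0.998, 0.995 and 0.994). Pnp2, a purine nucleoside phosphorylase gene on chromosome 14, was at 3.30 to 3.51 RPKM in KO and 0.275 to 0.356 RPKM in WT. For Ifi204 they were AI987944, Pcp4l1 and Prss23 (r = 0.998, 0.995 and 0.994), of which Pcp4l1 lies on chromosome 1 too, at 20.8 to 24.1 RPKM in KO and 82.9 to 113 RPKM in WT. For Mndal they were Tpr, Esf1 and Bod1l (r = 0.996, 0.995 and 0.993), for Mnda Rpp14, 2410075B13Rik and Sc4mol (r = 0.992, 0.981 and 0.980), and for Ifi203 Tram1, Hoxb7 and Cct6a (r = 0.983, 0.979 and 0.972).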

How the data were processed

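Per the labels' protocols, SMART-Seq v4 and Nextera XT were used, which do not mark strand. Tools in the submitters' processing notes are limma, edgeR, Subread and STAR 2.5.2b, and the build is mm10, without order or settings. The authors deposited RPKM per gene and library, and a table of log2 fold changes with raw and adjusted p-values. The numbers in column names are not those of the labels' replicates, so columns were matched by genotype and keep their own numbers.

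For all 17683 genes above 0, values were whole multiples of 1 read within 0.001 reads, and the implied gene lengths were whole for 99.2% of genes with at least 20 reads. RPKM are not counts, so limma 3.58.1 (R 4.3.3, trended variances) compared genotypes in log2(RPKM + 0.5) over genes reaching 1 RPKM in 3 or more libraries. Benjamini-Hochberg adjustment of p-values ran over all 11035 genes, with a threshold of 0.05. The fit was tested on simulated data. Members and gene lists were chosen with earlier results of these data known. Of each pathway list and of the neighbours, the rule named every called gene up to 6 of smallest p, or else the 3 of smallest p, and for each tested member the 3 genes most like it. Alternatives were other pseudocounts, filters and scaling, voom on the recovered reads, and each library left out. Positions and promoters came from RefSeq GRCm38.p6, and transcripts from GENCODE M21. Python 3.11.15 made tables and figures.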

Additional observations from a re-analysis of the deposited data

How the results depend on the processing

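No paired analysis was possible because the numbers in the deposited columns are not the replicate numbers of the labels. The log2 fold change of Ifi204 ran from -2.53 to -2.19 and that of Mndal from -1.26 to -0.96 over 12 alternatives, and that of Ifi203 from 0.13 to 0.48 and of Mnda from 0.54 to 0.87 over 11, since a 5 RPKM filter left both out. No value is given for Ifi202b, which is at 0 in WT, so that the pseudocount sets it.

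Over all genes, 214 passed, 48 to 406 with each library left out (64 without KO 2, 48 without KO 3, 406 without KO 4 and 84 without WT 4) and 77 with no filter on low values. Leaving out each library gave 0 to 1 called gene for interferon-stimulated genes, cytosolic DNA sensing and the inflammasome, and 1 to 3 for neighbouring genes. With no filter on low values, 0 interferon-stimulated genes, 0 genes of cytosolic DNA sensing and 1 neighbouring gene passed in limma, and with a 5 RPKM filter 0 genes of cytosolic DNA sensing, where Rad50 was below the filter. Members under 1 RPKM rest on few reads, which limits what can be seen of them.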
